A study of Homo sapiens with 12 samples.

Results

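SP-49 and Mino are established cell lines of mantle cell lymphoma, a cancer of mature human B cells, and their untreated RNA profiles were compared across all genes. The 4 arrays compared were those of cells kept for 24 h with 0.1% DMSO alone (mock): 2 of SP-49, grown in 10% serum, and 2 of Mino, grown in 15% serum. The series held 12 arrays in 6 groups of 2, the others being the line Rec-1 and all 3 lines after 1 µM compound E, a gamma-secretase inhibitor, and these 8 entered only to estimate the spread. All 19775 genes that a probe set named alone were compared, each by its brightest probe set. Each line descends from 1 tumour and stands for that tumour only, and the serum level went with the line, so line and serum cannot be told apart. Whether the 2 arrays of a line came from separate cultures is not given in the sources used here, and the p-values reflect the spread among these arrays alone, which could be technical.

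Mantle cell lymphoma typically carries a translocation that places the cyclin D1 gene CCND1 beside the immunoglobulin heavy chain enhancer, and most cases also express the transcription factor SOX11 and the surface protein CD5. The tumour cells keep the B-cell receptor, through which kinases such as SYK, LYN and BTK drive NF-kB and survival. Part of these tumours carries mutations of Notch receptors, whose cleaved intracellular part enters the nucleus, binds RBPJ and switches on genes such as HES1 and, in lymphoid cells, MYC. Loss of the cell cycle inhibitor CDKN2A at 9p21 is another recurrent event.

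Levels are log2 values, on which 1 unit is a factor of 2, and a difference is always SP-49 minus Mino. Over all probe sets the arrays of a line correlated with r of 0.990 in Mino and 0.995 in SP-49. A Mino array against an SP-49 array gave r of 0.951 to 0.952. The median of all deposited values was 1.99 and the upper quartile 3.65, and values near or under this median are dominated by background, so a fold that starts or ends there is understated. The 3′ minus 5′ control probe sets of ACTB, a sign of RNA quality, read 1.73 and 1.79 in Mino and 2.29 and 2.36 in SP-49, and those of GAPDH 0.26 and 0.25 against 0.35 and 0.34. Both moved with the line, and their part in the differences was not tested. The number of arrays, 2 per line, limits the precision: the median standard error (SE) of a difference was 0.164, and no gene past the threshold had an SE over 0.52.

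The lines differed in a large share of genes. Of 19775 genes, 2742 were higher in SP-49 (13.9%) and 2327 lower (11.8%), 5069 in all (25.6%), by limma at a Benjamini-Hochberg adjusted p under 0.05. At least 2-fold differences were found for 1287 higher genes (6.51%) and 938 lower genes (4.74%), and at least 8-fold differences for 167 and 43. Both SP-49 arrays lay above both Mino arrays for 28.7% of genes and below them for 32.4%, a share that includes many small differences. With 2 arrays per line, such separation is also frequent where no difference exists. No gene past the threshold overlapped between the lines. In SP-49, 127 genes lay above the upper quartile of all values that in Mino were under the median, while 32 genes showed the opposite. The largest differences were thus more often on the SP-49 side, as the plot of mean levels shows.

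**Figure D1:**
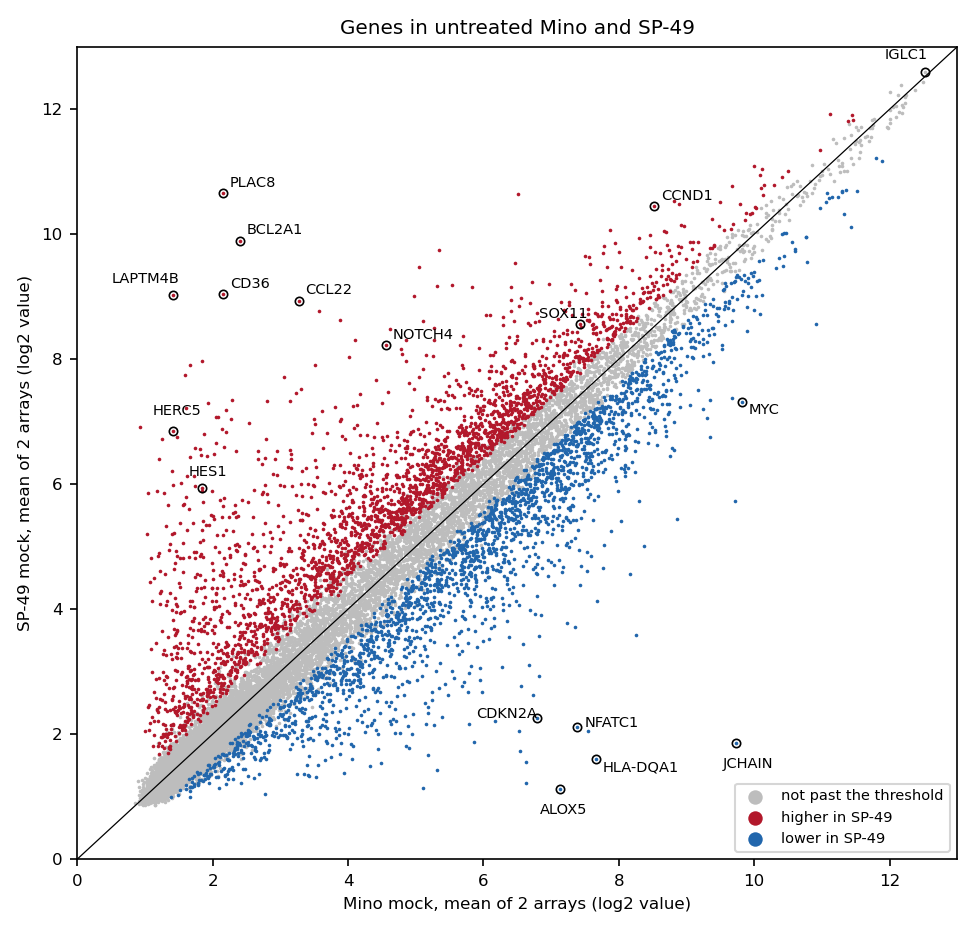
Mean log2 value of each gene in the 2 Mino mock arrays (x axis) and the 2 SP-49 mock arrays (y axis), without XIST and genes of the Y chromosome; red and blue points passed the threshold as higher or lower in SP-49, grey points did not, and the line marks equal levels. PLAC8, BCL2A1, LAPTM4B and CD36 stand at the upper left with Mino means under 2.5, JCHAIN, ALOX5 and HLA-DQA1 at the lower right, and the light chain gene IGLC1 lies on the line.

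Among the 15 largest differences upwards, several genes went from background in Mino to among the brighter transcripts of SP-49. PLAC8, a small cysteine-rich protein gene first known from placenta, read 2.30 and 2.0 on the Mino arrays and 10.63 and 10.68 on the SP-49 arrays. That is a difference of 8.51 (95% interval 8.19 to 8.82, adjusted p = 3.17e-11 by limma), or 364-fold, the largest among the genes named here. LAPTM4B, a transmembrane protein of lysosomes, read 1.14 and 1.68 on the Mino arrays and 8.99 and 9.05 on the SP-49 arrays, a difference of 7.61. In both genes the lines were far apart beside a spread between arrays of less than 1 unit. CD36, a scavenger receptor that takes up fatty acids, read 2.0 and 2.31 on the Mino arrays and 9.10 and 8.99 on the SP-49 arrays and differed by 6.89. MACROD2, a hydrolase that removes ADP-ribose from proteins, differed by 6.24, and PXDN, a peroxidase of the extracellular matrix, by 6.14. GTSF1, a germ-cell factor of the piRNA pathway, differed by 6.16 and the long non-coding RNA CRNDE by 5.99. In each of these genes the Mino mean lay near or under the median of all values. Receptors were on the same list: the ephrin receptor kinase EPHB1 differed by 5.48, the junction protein gene CLDN23 by 5.37, and GPR183, the oxysterol receptor that positions B cells in lymphoid follicles, by 5.61. The remaining genes of the 15, BCL2A1, CCL22, HERC5, FCRL3 and NFKBIZ, are given with their groups.

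Downwards, the largest difference was that of JCHAIN, which joins the units of secreted IgM and IgA. It read 9.71 and 9.76 on the Mino arrays and 2.11 and 1.61 on the SP-49 arrays, a difference of -7.88 (95% interval -8.26 to -7.49, adjusted p = 1.76e-10 by limma). ALOX5, the enzyme that starts leukotriene synthesis, read 7.08 and 7.18 on the Mino arrays and 0.99 and 1.24 on the SP-49 arrays and differed by -6.02. Both genes were at background in SP-49 and well above it in Mino. CAV1, the coat protein of caveolae, differed by -5.50 and APOBEC3B, a cytidine deaminase that mutates DNA, by -5.41. FAM3B, a secreted cytokine-like protein, differed by -5.07, the protocadherin PCDH9 by -4.81 and CST7, an inhibitor of lysosomal proteases, by -4.47. In SP-49 all 5 of these had means near or under the median of all values. MEST, an imprinted gene on chromosome 7, differed by -3.98 with levels of 9.72 in Mino and 5.74 in SP-49, so it stayed well above background in both lines. UGT2B17, which conjugates androgens to glucuronic acid, differed by -3.98 and PYHIN1, a DNA sensor family member, by -3.98.

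Both lines carried the labelled identity. MS4A1, which encodes CD20, read 10.08 and 9.92 on the Mino arrays and 11.10 and 11.09 on the SP-49 arrays, and CD79A, a signalling chain of the B-cell receptor, 7.94 and 7.95 on the Mino arrays and 7.13 and 7.17 on the SP-49 arrays. CD79B differed by -0.24 (95% interval -0.52 to 0.03, adjusted p = 0.2 by limma) and did not pass the threshold. PAX5, the transcription factor that fixes B-cell identity, was higher in SP-49 by 2.08, and CD22, an inhibitory receptor of B cells, by 1.07. These B-cell markers were above the upper quartile of all values on each of the 4 arrays. The other probe set of PAX5 gave a difference of -0.12 and did not pass the threshold. SOX11 read 7.40 and 7.45 on the Mino arrays and 8.5 and 8.62 on the SP-49 arrays, a difference of 1.14 (95% interval 0.86 to 1.42). CD5 was the exception among the defining markers: it read 4.82 and 3.92 on the Mino arrays and 2.73 and 2.73 on the SP-49 arrays, so that SP-49 lay under the upper quartile of all values on both arrays, a difference of -1.64.

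CCND1 differed in opposite directions on its pair of probe sets. The brighter one read 8.51 and 8.54 on the Mino arrays and 10.47 and 10.43 on the SP-49 arrays, a difference of 1.93 (adjusted p = 2.64e-07 by limma). The other probe set of CCND1 read 9.53 and 8.98 on the Mino arrays but 1.22 and 1.26 on the SP-49 arrays, a difference of -8.02 (adjusted p = 8.48e-10 by limma over all probe sets). SP-49 thus had the higher level on the first and background on the second, while Mino was bright on both. In mantle cell lymphoma CCND1 transcripts of different length are known, which differ in the untranslated end; which part of CCND1 each probe set reads is not given in the sources used here. The other D-type cyclins did not pass the threshold: CCND2 differed by -0.58 (adjusted p = 0.152 by limma, and 0.0156 without either Rec-1 mock array) and CCND3 by 0.14 (adjusted p = 0.543).

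Of 17 measured genes known as markers of this lymphoma, 6 were higher in SP-49 (35.3%) and 4 lower (23.5%), beside 13.9% and 11.8% of all genes. Among genes above the median of all values the shares were 20.3% and 17.0%. The higher genes included SOX11, and CCND1 on its brighter probe set only. FCER2, the low-affinity IgE receptor CD23, was higher by 1.34 and the chemokine receptor CXCR4 by 0.77. LEF1, a partner of beta-catenin, was lower by a difference of -1.90. MSI2, an RNA-binding protein, was lower on its brightest probe set (-1.48), and another of its probe sets passed the threshold in the opposite direction. The median difference of the list was -0.01, beside -0.03 over all genes.

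CDKN2A, which encodes the inhibitors p16 and ARF, was expressed in Mino and at background in SP-49. It read 6.73 and 6.85 on the Mino arrays and 2.06 and 2.44 on the SP-49 arrays, a difference of -4.54 (95% interval -4.92 to -4.16, adjusted p = 1.02e-08 by limma), and the next probe set of the gene gave -4.72. MTAP, the methionine salvage enzyme beside it at 9p21, read 5.49 and 5.63 on the Mino arrays and 3.51 and 3.60 on the SP-49 arrays, a difference of -2.01, and thus kept a signal close to the upper quartile in SP-49. CDKN2B, another inhibitor gene of this locus, lay under the median of all values in both lines (1.54 in Mino and 1.33 in SP-49). Of the 9 genes of this locus measured, 3 were lower (33.3%, against 11.8% of all genes) and none was higher. RB1, the pocket protein that CDK4 and CDK6 inactivate, was higher in SP-49 by 1.54 with levels of 7.52 in Mino and 9.06 in SP-49. CDK2 was higher by 0.91 and the inhibitor CDKN1B by 0.55, whereas CDKN1A differed by -0.32 (adjusted p = 0.316 by limma).

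Notch signalling genes differed on several levels, and HES1 was the clearest. HES1 and HES4 encode repressors that Notch switches on through RBPJ, whose core site is TGGGAA. The 250 bases before the start of HES1 held 2 such cores, and those of HES4 1, on either strand. They are shown as 2 of the Notch target promoters that hold the pattern, both of genes higher in SP-49, from RefSeq (GRCh38.p14), for HES1 at chr3:194136008-194136127 on the plus strand and for HES4 at chr1:1000108-1000227 on the minus strand, 5′ to 3′ along the gene, with the cores in capitals.
HES1: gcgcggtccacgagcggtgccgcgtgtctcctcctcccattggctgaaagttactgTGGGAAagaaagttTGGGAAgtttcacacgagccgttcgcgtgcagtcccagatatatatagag
HES4: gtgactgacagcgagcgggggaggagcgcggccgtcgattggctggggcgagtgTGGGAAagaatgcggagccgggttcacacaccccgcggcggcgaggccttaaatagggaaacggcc
The core occurred in 5 of 10 promoters found for the Notch target list, 3 of 5 among genes higher in SP-49 and 2 of 5 among genes that did not pass, against 21.1% of 27305 promoters of the same length. Over all 3087 tested genes with the core in this window, 15.2% were higher in SP-49 and 10.7% lower, beside 14.5% and 12.9% of the 12297 genes without it. A match describes letters and not binding. HES1, with its pair of cores, read 1.69 and 2.0 on the Mino arrays and 6.11 and 5.77 on the SP-49 arrays, a difference of 4.09 (95% interval 3.67 to 4.52, adjusted p = 4.73e-08 by limma). A second probe set of HES1 gave 1.98 and another, at background in both lines, -0.09. HES4 read 2.24 and 1.80 on the Mino arrays and 3.25 and 2.80 on the SP-49 arrays, a difference of 1.00 (adjusted p = 0.00363 by limma), and without SP-49 mock replicate 1 it missed the threshold (0.78, adjusted p = 0.0505).

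Among 13 Notch target genes, 6 were higher in SP-49 (46.2%) and 2 lower (15.4%), beside 13.9% and 11.8% of all genes. The median was -0.07, and its sign depended on the setting. NRARP, a feedback inhibitor of Notch, read 4.13 and 4.36 on the Mino arrays and 5.81 and 5.81 on the SP-49 arrays, a difference of 1.57. HEY2 read 2.27 and 3.11 on the Mino arrays and 4.67 and 4.62 on the SP-49 arrays and HEY1 2.50 and 2.28 on the Mino arrays and 3.52 and 3.54 on the SP-49 arrays, repressors of the same family, with differences of 1.96 and 1.14. NOTCH3 was higher by 0.88 but stayed under the upper quartile of all values in both lines. The lymphoid target genes went the other way: DTX1, a Notch ubiquitin ligase, read 8.23 and 8.13 on the Mino arrays and 7.07 and 7.14 on the SP-49 arrays, a difference of -1.08. MYC read 9.92 and 9.72 on the Mino arrays and 7.33 and 7.31 on the SP-49 arrays, a difference of -2.50 (95% interval -2.88 to -2.11, adjusted p = 1.09e-06 by limma), a 5.64-fold lower level in SP-49. The HES and HEY repressors and MYC therefore differed in opposite directions between these lines.

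All 4 Notch receptors were higher in SP-49 on their brightest probe set. NOTCH4 read 4.61 and 4.51 on the Mino arrays and 8.26 and 8.19 on the SP-49 arrays, a difference of 3.66 (adjusted p = 2.01e-08 by limma), and its dimmer probe set gave 0.56. NOTCH2 was higher by 1.14 with levels of 7.09 in Mino and 8.23 in SP-49. Of its 3 other probe sets only 1 was higher past the threshold, and their differences ran from -0.49 to 1.02. The other probe set of NOTCH3 gave 0.06 and did not pass. NOTCH1 was higher by 1.32 with levels of 4.85 in Mino and 6.17 in SP-49, while its other, dim probe set passed the threshold in the opposite direction (-0.65, adjusted p = 0.0421). Of the 5 ligands, JAG2 was lower, with a difference of -1.26 (adjusted p = 0.0275 by limma) and levels of 4.22 in Mino and 2.96 in SP-49, and the other 4 did not pass. JAG2 missed the threshold without any one of the 4 arrays compared (adjusted p from 0.064 to 0.172). In the cleavage and nuclear machinery, 6 of 24 genes were higher (25%) and 4 lower (16.7%), close to the 20.3% and 17.0% among genes above the median of all values. The lower count was 2 without Mino mock replicate 1 or either SP-49 mock array. MAML2, a coactivator of the RBPJ complex, read 1.62 and 2.59 on the Mino arrays and 5.62 and 5.86 on the SP-49 arrays, a difference of 3.64, and the ubiquitin ligase DTX4 differed by 3.25. FBXW7, the ligase that targets cleaved Notch and MYC for degradation, was higher by 0.78 and the corepressor SPEN by 0.89. MFNG, a glycosyltransferase that tunes which ligands a receptor answers, was lower by a difference of -2.62 with levels of 8.03 in Mino and 5.41 in SP-49. RBPJ itself was lower by a difference of -0.71. The sheddases ADAM10 (-0.23) and ADAM17 (0.27) and the gamma-secretase subunits NCSTN (0.25) and APH1A (-0.00) did not pass the threshold, with intervals of -0.56 to 0.10, 0.00 to 0.54, -0.21 to 0.71 and -0.30 to 0.29.

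**Figure D2:**
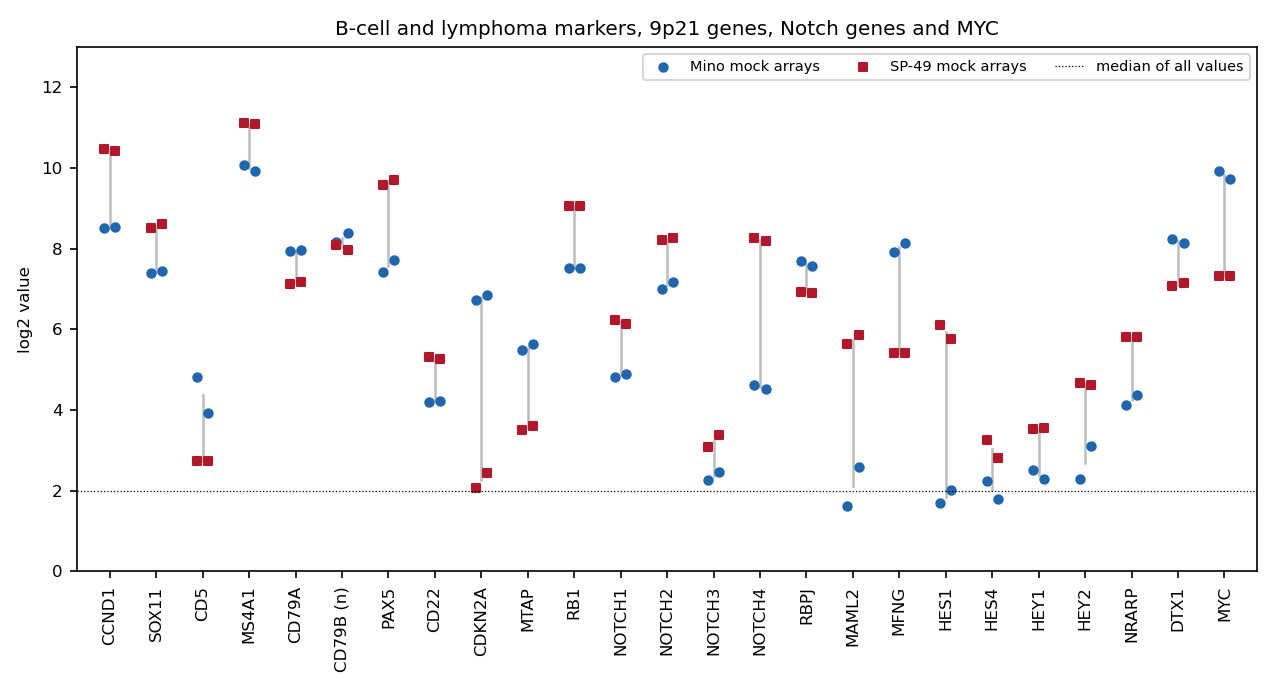
Log2 value of 25 genes on each mock array of Mino (blue circles, n = 2) and SP-49 (red squares, n = 2); grey bars join the line means, the dotted line is the median of all values, and (n) marks a gene that did not pass the threshold. HES1, NOTCH4 and MAML2 are higher in SP-49 on both arrays, and CDKN2A, MFNG and MYC higher in Mino.

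Genes of growth metabolism that MYC is known to drive were mostly lower in SP-49, as was MYC. Of 31 measured, 22 were lower (71.0%, against 11.8% of all genes) and 3 higher, with a median difference of -0.60. BCAT1, which transaminates branched-chain amino acids, read 9.39 and 9.23 on the Mino arrays and 7.05 and 7.07 on the SP-49 arrays, a difference of -2.24. PHGDH, the first enzyme of serine synthesis, read 6.67 and 6.51 on the Mino arrays and 4.26 and 4.53 on the SP-49 arrays, a difference of -2.19. PKM, the last enzyme of glycolysis, read 9.18 and 9.31 on the Mino arrays and 7.18 and 7.22 on the SP-49 arrays, a difference of -2.04. In each of these 3 genes both SP-49 arrays lay below both Mino arrays by over 1 unit. The other probe set of PKM gave a difference of -0.23 and did not pass the threshold. The difference was -1.86 for PYCR1 (proline synthesis), -1.80 for SRM (spermidine synthesis) and -1.59 for SLC1A5 (glutamine uptake). PSAT1, the second enzyme of serine synthesis, went against PHGDH: it read 2.37 and 3.11 on the Mino arrays and 5.72 and 6.04 on the SP-49 arrays, a difference of 3.14. TFRC, the transferrin receptor, was higher by 1.38.

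Ribosome biogenesis genes were lower in 12 of 29 (41.4%, against 11.8% of all genes) and higher in 2 (6.9%), with a median of -0.37. LYAR, a nucleolar protein, differed by -1.39, the helicase DDX10 by -1.35, WDR12 of the PeBoW complex by -1.04, NOLC1 by -1.02 and fibrillarin, FBL, by -0.90. The abundant nucleolar genes NPM1 and NCL, at 10.98 in Mino and 10.94 in SP-49 and 9.68 in Mino and 9.54 in SP-49, did not pass the threshold. Ribosomal protein genes were lower in 6 of 28 (21.4%), among them RPL11 (-0.99), and RPS27L, a relative of RPS27, was the only one higher (0.80). Of 26 respiratory chain genes, 9 were lower (34.6%), with differences of -1.43 for COX5B, -1.25 for SDHD and -0.91 for NDUFV1, and 1 was higher, NDUFB5 (0.66).

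Glycolysis and hypoxia-response genes were lower in 16 of 34 (47.1%) and higher in 5 (14.7%), beside 11.8% and 13.9% of all genes. The median was -0.50. PDK1, the kinase that shuts pyruvate out of the mitochondria, read 6.42 and 6.17 on the Mino arrays and 4.34 and 3.83 on the SP-49 arrays, a difference of -2.21. GPI, the second enzyme of glycolysis, read 9.11 and 9.23 on the Mino arrays and 7.58 and 7.43 on the SP-49 arrays, a difference of -1.66. Of other enzymes of the pathway, HK2 differed by -1.21, PFKM by -1.29, TPI1 by -1.06 and PGK1 by -0.79. These glycolytic enzymes were lower together, while GAPDH (0.14) and PGAM1 (0.24) did not pass. The higher members were not glycolytic enzymes for the most part: ADM, a vasodilator peptide, was higher by 1.93, the oxygen sensor EGLN3 by 1.70, ANKRD37 by 1.01 and the neural enolase ENO2 by 0.90.

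Interferon-stimulated genes formed the list with the highest median difference of the 48 examined. Type I interferon activates a transcription factor complex that binds a response element with the core GAAANNGAAA, and its target genes restrict viruses. The core was searched on both strands of the 250 bases before each start, and overlapping matches count separately. It was found in 18 of 31 promoters of the list, 13 of 23 among genes higher in SP-49, 2 of 2 among lower genes and 3 of 6 among the rest, against 3.07% of 27305 promoters of that length. Shown are stretches of the promoters of 4 genes of the list that were higher in SP-49 and of IFITM1, which was lower, since the core is in both kinds. They come from RefSeq (GRCh38.p14), with the matches in capitals, read along each gene: HERC5 at chr4:88456939-88457058, IFIT1 at chr10:89392453-89392572, ISG15 at chr1:1013327-1013446 and IFITM1 at chr11:313920-314039 on the plus strand, and DDX60 at chr4:168318773-168318892 on the minus strand. Where a core runs along the other strand, it appears here as its complement, with TTTC in place of GAAA.
HERC5: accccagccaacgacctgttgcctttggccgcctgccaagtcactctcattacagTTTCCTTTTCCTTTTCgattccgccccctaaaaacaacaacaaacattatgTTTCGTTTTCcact
DDX60: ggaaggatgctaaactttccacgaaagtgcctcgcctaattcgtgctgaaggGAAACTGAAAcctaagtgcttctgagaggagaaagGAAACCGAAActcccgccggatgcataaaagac
IFIT1: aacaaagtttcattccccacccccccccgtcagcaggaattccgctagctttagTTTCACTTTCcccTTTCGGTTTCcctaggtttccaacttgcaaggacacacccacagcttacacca
ISG15: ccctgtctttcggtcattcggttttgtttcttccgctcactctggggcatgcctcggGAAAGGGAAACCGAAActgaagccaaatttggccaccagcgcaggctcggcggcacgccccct
IFITM1: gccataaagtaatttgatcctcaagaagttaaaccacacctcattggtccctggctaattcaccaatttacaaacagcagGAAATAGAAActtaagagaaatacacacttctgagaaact
HERC5 and IFIT1 carry the core as its complement, and DDX60 and ISG15 carry it along the gene. Over all 381 tested genes with the core in this window, 19.4% were higher in SP-49 and 9.45% lower, beside 14.5% and 12.5% of the 15003 genes without it, so most genes with these letters did not differ.

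Of 41 interferon-stimulated genes measured, 29 were higher in SP-49 (70.7%, against 13.9% of all genes), 4 were lower and 8 did not pass, with a median of 1.67. HERC5, the ligase that attaches ISG15 to proteins, read 1.32 and 1.5 on the Mino arrays and 6.58 and 7.11 on the SP-49 arrays, a difference of 5.44 (95% interval 4.59 to 6.29, adjusted p = 1.17e-06 by limma). DDX60, a helicase that aids RNA sensing, read 1.31 and 1.25 on the Mino arrays and 5.99 and 5.74 on the SP-49 arrays, a difference of 4.59. ISG15 itself, a ubiquitin-like modifier, read 5.81 and 6.27 on the Mino arrays and 8.68 and 8.74 on the SP-49 arrays, a difference of 2.67. HERC5 and DDX60 were at background in Mino, and ISG15 was not. Among sensors and effectors, OAS1, which makes the second messenger of RNase L, differed by 4.22, IFIT1 by 3.67, IFIT3 by 3.59 and MX1, a GTPase that traps viral capsids, by 3.07. USP18, the protease that removes ISG15, differed by 4.11 and the nucleotide kinase CMPK2 by 4.78. The regulators were higher too: IRF7 read 3.44 and 3.59 on the Mino arrays and 7.10 and 6.83 on the SP-49 arrays, a difference of 3.45, and IRF9 4.14 and 4.04 on the Mino arrays and 6.91 and 6.90 on the SP-49 arrays, a difference of 2.81.

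Not all interferon-stimulated genes followed. IFITM1, IFITM2 and IFITM3, neighbouring genes for membrane proteins that block viral entry, were lower in SP-49, by differences of -1.49, -1.87 and -1.32. IFITM1 read 7.88 and 8.06 on the Mino arrays and 6.56 and 6.41 on the SP-49 arrays, so it was well above background in both lines. GBP2, a guanylate-binding protein that interferon gamma induces, was lower by a difference of -1.58. RSAD2, a strongly interferon-induced antiviral gene, stayed under the median of all values on each of the 4 arrays, between 1.51 and 1.98, as did IFI27, GBP4 and GBP5 in their means. Several of the brightest genes of the list in SP-49 thus sat beside classical members without signal.

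**Figure D3:**
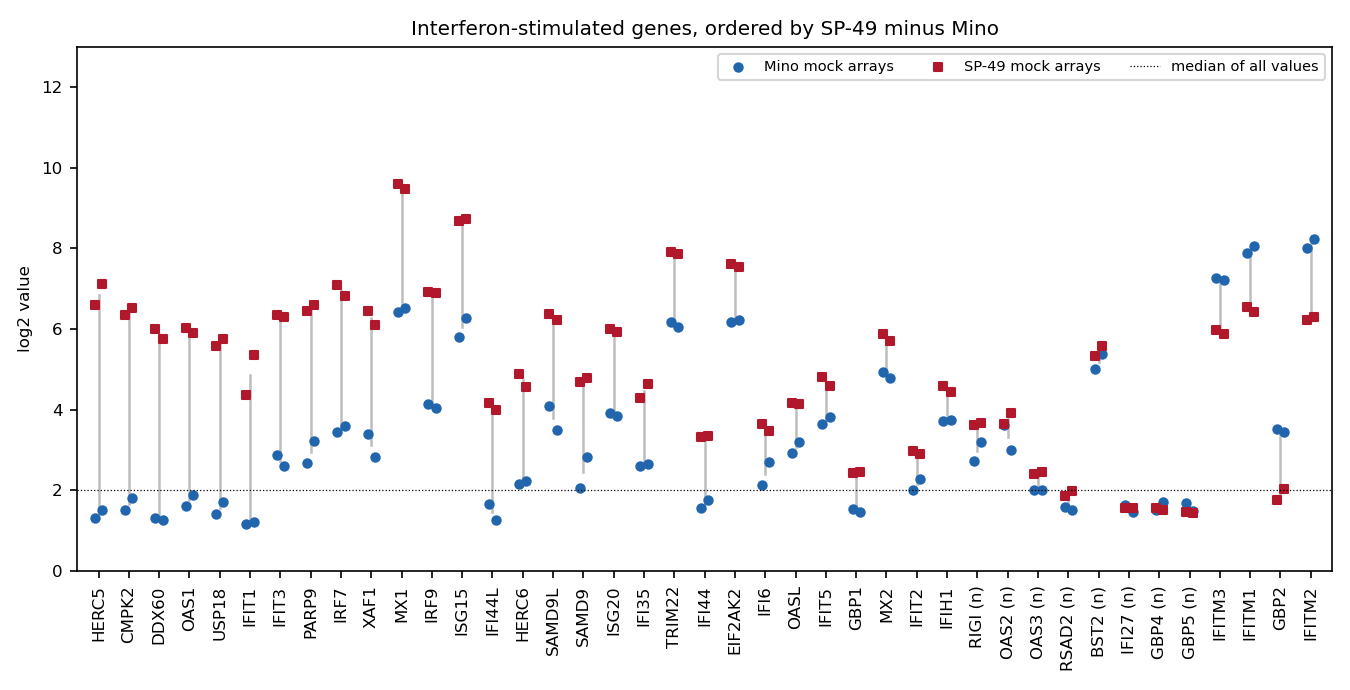
Log2 value of each of the 41 interferon-stimulated genes on the mock arrays of Mino (blue circles, n = 2) and SP-49 (red squares, n = 2), ordered by SP-49 minus Mino; grey bars join the means, the dotted line is the median of all values and (n) marks genes that did not pass the threshold. The 29 higher genes stand at the left, led by HERC5, and IFITM1, IFITM2, IFITM3 and GBP2 stand at the right with Mino above SP-49.

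NF-kB regulators and targets were also higher in SP-49. Of 33 measured, 19 were higher (57.6%, against 13.9% of all genes) and 2 lower, with a median of 0.96. BCL2A1, a BCL2 relative that protects B cells from apoptosis, read 2.11 and 2.69 on the Mino arrays and 9.91 and 9.89 on the SP-49 arrays, a difference of 7.5 (95% interval 6.98 to 8.02, adjusted p = 2.26e-09 by limma). CCL22, the chemokine that draws CCR4-bearing T cells, read 3.46 and 3.08 on the Mino arrays and 8.92 and 8.96 on the SP-49 arrays, a difference of 5.67. NFKBIZ, an inducible nuclear cofactor of NF-kB, read 3.64 and 3.51 on the Mino arrays and 8.71 and 8.83 on the SP-49 arrays, a difference of 5.20. All 3 lay below 4 on both Mino arrays and above 8 on both SP-49 arrays. The NF-kB consensus, searched on both strands, was found in 12 of 29 promoters of the list against 9.57% of 27305. It was in 7 of 17 among genes higher in SP-49, 2 of 2 among lower genes and 3 of 10 among the rest. Stretches of NFKBIZ at chr3:101827740-101827859 and CCL22 at chr16:57358543-57358662, both on the plus strand (RefSeq, GRCh38.p14), show it in capitals. Both genes were higher in SP-49, and no lower gene is shown. In CCL22 the capitals join 2 overlapping matches.
NFKBIZ: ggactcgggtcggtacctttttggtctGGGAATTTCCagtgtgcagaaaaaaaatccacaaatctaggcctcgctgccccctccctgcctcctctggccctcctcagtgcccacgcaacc
CCL22: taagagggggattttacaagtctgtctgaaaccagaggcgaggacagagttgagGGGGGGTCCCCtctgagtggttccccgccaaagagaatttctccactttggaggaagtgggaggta
Among the 1701 tested genes with this consensus, 14.7% were higher and 12.8% lower, and among those without it 14.7% and 12.4%, so the letters alone did not go with the calls.

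The feedback inhibitors of NF-kB were among the higher genes. TNFAIP3, a deubiquitinase that ends the signal, read 5.59 and 5.76 on the Mino arrays and 7.90 and 7.91 on the SP-49 arrays, a difference of 2.23, and NFKBIA differed by 1.01 and NFKBIE by 1.02. The subunit REL, the form most tied to B-cell activation, was higher by 1.92, whereas RELA, NFKB1, NFKB2 and RELB did not pass, with differences from -0.13 to 0.33. Other targets higher in SP-49 were TNF (3.21), PLEK (3.12), the caspase-8 regulator CFLAR (2.74), the cytokine subunit EBI3 (2.70) and TRAF1 (2.10). Of the lower genes, TRAF3, which restrains the alternative pathway and is itself a target of mutations in B-cell tumours, differed by -1.16, and the kinase IRAK1 by -1.08. MAP3K14, the kinase TRAF3 holds down, was higher by 0.96. IL6, IL10, LTA and LTB did not pass and differed by at most 0.10 in size.

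Immediate-early and AP-1 genes were higher in 14 of 28 (50%) and lower in 2 (7.14%), beside 13.9% and 11.8% of all genes. EGR1, a zinc finger factor that antigen receptor signals induce within minutes, read 3.02 and 3.10 on the Mino arrays and 6.08 and 5.88 on the SP-49 arrays, a difference of 2.92, and EGR3 differed by 2.90. DUSP5, a phosphatase that acts on ERK in the nucleus, read 3.38 and 2.92 on the Mino arrays and 6.49 and 6.59 on the SP-49 arrays, a difference of 3.39. IER5 was higher by 2.20, IER3 by 2.14, NR4A3 by 2.03, BATF by 1.95 and JUN by 1.81. Other members of the AP-1 family did not pass the threshold: FOS, FOSL1 and FOSL2 differed by at most 0.11 and had means under 2.5.

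Among 17 BCL2 family genes, 8 were higher in SP-49 (47.1%) and 1 lower (5.88%), beside 13.9% and 11.8% of all genes. Besides BCL2A1, the differences were 1.5 for BCL2L13, 1.26 for BID, which caspase-8 cleaves, 1.19 for the BH3-only gene BIK, 0.92 for BMF and 0.78 for MCL1. BIK read 3.16 and 3.06 on the Mino arrays and 4.41 and 4.19 on the SP-49 arrays. Pro-survival and pro-apoptotic members were both among the higher genes. BCL2 itself, the target of venetoclax, differed by 0.18 (95% interval -0.14 to 0.50, adjusted p = 0.462 by limma), and BCL2L11, which encodes BIM, by 0.10 (95% interval -0.27 to 0.46). HRK was lower by a difference of -0.94.

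B-lineage transcription factors were higher in 11 of 23 (47.8%) and lower in 3 (13%), beside 13.9% and 11.8% of all genes. ID2, which sequesters E proteins, read 4.40 and 3.81 on the Mino arrays and 8.29 and 8.31 on the SP-49 arrays, a difference of 4.19 (adjusted p = 1.57e-08 by limma). IRF8, a regulator of B-cell and germinal centre development, read 5.45 and 5.62 on the Mino arrays and 9.20 and 9.18 on the SP-49 arrays, a difference of 3.65. MEF2C, which acts downstream of the B-cell receptor, was higher by 2.56, FOXP1 by 2.16, BCL11A by 1.56 and the Ikaros family member IKZF3 by 1.28. TCF4 and EBF1 were higher by 0.60 and 0.91. AFF3, a lymphoid nuclear protein, was the largest difference downwards: it read 7.68 and 7.85 on the Mino arrays and 4.82 and 4.50 on the SP-49 arrays, a difference of -3.10. POU2AF1, a coactivator of immunoglobulin transcription, was lower by a difference of -0.76. IRF4 differed by -0.18 (95% interval -0.48 to 0.12, adjusted p = 0.411 by limma) and was bright in both lines.

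Members of the FCRL family, receptors of B cells that bind immunoglobulins and damp or modulate their signals, were higher in SP-49. FCRL3 read 1.51 and 1.45 on the Mino arrays and 6.93 and 6.58 on the SP-49 arrays, a difference of 5.28 (adjusted p = 1.11e-09 by limma). FCRL2 read 2.11 and 2.46 on the Mino arrays and 7.37 and 7.31 on the SP-49 arrays, a difference of 5.06, and FCRL4 2.05 and 1.59 on the Mino arrays and 6.39 and 6.53 on the SP-49 arrays, a difference of 4.64. These 3 genes were near background in Mino. FCRL5 was higher by 2.74 from a level already bright in Mino (6.41 in Mino and 9.15 in SP-49), and FCRL1 did not pass (0.35). The complement receptor CR2, which lowers the threshold of B-cell activation, read 1.42 and 1.29 on the Mino arrays and 5.06 and 4.83 on the SP-49 arrays, a difference of 3.59. Its other probe set gave -0.084 and did not pass. By contrast, the complement regulators CD55 and CD46, which protect cells from complement, were lower by differences of -1.73 and -0.80.

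B-cell surface molecules were higher in 15 of 26 (57.7%) and lower in 3 (11.5%), beside 13.9% and 11.8% of all genes. CD27, a marker of memory B cells, read 4.53 and 4.66 on the Mino arrays and 7.45 and 7.51 on the SP-49 arrays, a difference of 2.89. CD300A, an inhibitory receptor, differed by 2.68, the inhibitory Fc receptor FCGR2B by 2.61 and the activation marker CD83 by 2.52. The adhesion receptor CD44 was higher by 1.72, and the costimulatory molecules CD86 and CD40 by 1.60 and 1.46. Inhibitory and costimulatory receptors were both among the higher genes. CD180, a Toll-like receptor relative, was lower by a difference of -2.18, and CD24 and CD37 did not pass.

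Of 27 B-cell receptor signalling genes, 19 were higher in SP-49 (70.4%, against 13.9% of all genes) and 2 lower, with a median of 0.83. The Src-family kinase FYN read 5.13 and 5.38 on the Mino arrays and 8.10 and 8.01 on the SP-49 arrays, a difference of 2.80, and its relative BLK differed by 1.88 and LYN by 0.85. SYK, the kinase that docks on the phosphorylated receptor, read 6.65 and 6.79 on the Mino arrays and 8.24 and 8.28 on the SP-49 arrays, a difference of 1.54. CBLB, a ubiquitin ligase that limits the signal, differed by 2.59, RASGRP3 by 1.66, VAV2 by 1.31 and PLCG2 by 1.19. The other probe sets of BLK, RASGRP3 and VAV2 did not pass the threshold, with differences from -0.16 to 0.22. Kinases and a negative regulator were among the higher genes. NFATC1, the calcium-dependent factor at the end of this pathway, was a clear exception: it read 7.29 and 7.48 on the Mino arrays and 1.89 and 2.33 on the SP-49 arrays, a difference of -5.28 (95% interval -5.63 to -4.93, adjusted p = 1.57e-09 by limma). Another 3 of its 5 probe sets were lower past the threshold too, by up to -3.66. The adaptor DOK3 was lower by a difference of -1.38, and BTK, the target of ibrutinib, differed by -0.33 (95% interval -0.60 to -0.07, adjusted p = 0.0679 by limma).

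Immunoglobulin genes were lower or did not pass. The lambda light chain gene IGLC1 was among the brightest of all genes in both lines, at 12.52 in Mino and 12.60 in SP-49, although the mean of its probe sets was lower in SP-49 (-0.71), and the kappa gene IGKC was near the median of all values at 2.21 in Mino and 2.20 in SP-49. IGHD, the delta heavy chain, read 5.57 and 6.01 on the Mino arrays and 2.39 and 1.92 on the SP-49 arrays, a difference of -3.63. IGHM, the mu chain, differed by -2.35 on its brightest probe set and by -3.20 on the next, with levels of 10.91 in Mino and 8.56 in SP-49, while a dimmer probe set of IGHM gave 2.15. VPREB3 was lower by a difference of -1.97. Of 19 plasma-cell genes 4 were higher (21.1%) and 5 lower (26.3%), beside 13.9% and 11.8% of all genes. Among genes above the median of all values the shares were 20.3% and 17.0%, so the higher share was close to that. The lower genes included JCHAIN, MZB1 (-1.43), the ER protein FKBP11 (-1.07) and the peroxiredoxin PRDX4 (-1.06). Against these, ELL2, which favours secretory heavy chain, was higher by 2.27, SLAMF7 by 1.78 and XBP1 by 1.51. No other probe set of ELL2, SLAMF7 or XBP1 passed the threshold, with differences from -0.19 to 0.29. PRDM1, the master regulator of plasma cells, did not pass (0.61, adjusted p = 0.271 by limma).

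The germinal centre regulator BCL6, a repressor that holds B cells in that stage, read 1.42 and 2.03 on the Mino arrays and 5.90 and 6.36 on the SP-49 arrays, a difference of 4.40 (adjusted p = 5.65e-07 by limma). MYBL1, a factor of dividing germinal centre cells, differed by 3.03 and the adaptor STAP1 by 1.83. The 2 other probe sets of MYBL1 gave -0.33 and -0.04 and did not pass. P2RY8, a receptor that confines cells to the germinal centre, was lower by a difference of -2.46. Other defining genes of that stage were near background in both lines: MME, GCSAM, LMO2, RGS13 and SERPINA9 had means under 3 and did not pass. The list had 6 higher (28.6%) and 2 lower (9.52%) of 21, beside 13.9% and 11.8% of all genes. Among genes above the median of all values the shares were 20.3% and 17.0%.

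Antigen presentation differed most at HLA-DQ. HLA-DQA1 read 7.57 and 7.74 on the Mino arrays and 1.57 and 1.64 on the SP-49 arrays, a difference of -6.05, and HLA-DQB1 8.27 and 8.23 on the Mino arrays and 3.83 and 3.33 on the SP-49 arrays, a difference of -4.67 (adjusted p = 8.10e-08 by limma). HLA-DRB4, a gene present on part of human haplotypes, went the other way and read 2.32 and 1.84 on the Mino arrays and 7.08 and 7.08 on the SP-49 arrays, a difference of 5.00. That holds for its brightest probe set only: the other 2 gave -0.05 and 0.03 and did not pass the threshold. These HLA genes vary in sequence between people, and whether a probe set reads every allele alike was not tested. The invariant chain CD74 was lower by a difference of -1.30 and HLA-DPB1 by -1.13, both still bright in SP-49. HLA-DRA (-0.34), HLA-DPA1 (0.02) and the transactivator CIITA (0.02) did not pass, with adjusted p of 0.145, 0.959 and 0.963 by limma, although a second probe set of HLA-DPA1 was lower (-0.89, adjusted p = 0.00274). Of 17 MHC class II genes 7 were lower (41.2%) and 2 higher (11.8%), against 11.8% and 13.9% of all genes. The higher count was 4 without either Rec-1 mock array and 1 without Mino mock replicate 1 or SP-49 mock replicate 2. In the class I pathway, 7 of 20 genes were higher (35%), among them the immunoproteasome subunit PSMB8 (0.90) and the peptide transporter TAP1 (0.74), and TAPBP, its tapasin partner, was lower (-1.12). B2M differed by 0.25 and did not pass.

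Receptors of migration were higher in 17 of 41 (41.5%) and lower in 7 (17.1%), beside 13.9% and 11.8% of all genes. GPR183 read 1.35 and 1.87 on the Mino arrays and 7.18 and 7.27 on the SP-49 arrays. S1PR1, by which lymphocytes leave tissue, read 5.09 and 4.85 on the Mino arrays and 7.61 and 7.45 on the SP-49 arrays, a difference of 2.56. CXCR5, which leads B cells into follicles, read 3.06 and 3.59 on the Mino arrays and 5.67 and 5.95 on the SP-49 arrays, a difference of 2.48. Receptors for follicle entry and for exit were both higher in SP-49. ACKR3, a scavenger of CXCL12, differed by 2.43, the tetraspanin CD82 by 1.88 and the integrin subunits ITGAE, ITGB7 and ITGA4 by 1.65, 1.53 and 1.05. Integrin ITGB2 was lower by a difference of -1.95, and the tetraspanins CD9 and CD81 by -1.93 and -1.76. The 3 tetraspanins named thus differed in both directions.

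Chemokine and cytokine ligand genes were higher in 11 of 26 (42.3%) and lower in 3 (11.5%), beside 13.9% and 11.8% of all genes. CXCL10, an interferon-induced chemokine for activated T cells, read 1.70 and 2.64 on the Mino arrays and 6.59 and 6.59 on the SP-49 arrays, a difference of 4.42. IL16 differed by 2.25, CCL4 by 1.81 and the B-cell survival ligand TNFSF13B (BAFF) by 1.58. IL32, an inflammatory cytokine of lymphoid cells, was lower: it read 6.88 and 6.59 on the Mino arrays and 2.48 and 2.76 on the SP-49 arrays, a difference of -4.11. CCL5 and TGFB1 were lower by differences of -1.79 and -1.79. The other probe set of TGFB1 gave -0.07 and did not pass the threshold. Among cytokine and TNF-family receptors, 13 of 31 were higher (41.9%) and 5 lower (16.1%). IL10RA, the ligand-binding chain for IL-10, read 3.71 and 4.04 on the Mino arrays and 8.65 and 8.59 on the SP-49 arrays, a difference of 4.75, and IL6R 2.33 and 2.74 on the Mino arrays and 6.98 and 6.99 on the SP-49 arrays, a difference of 4.45. IFNGR1 was higher by 2.0, IL21R by 1.98 and TGFBR2 by 1.89. The other probe sets of IL21R (0.46 and 0.48) and TGFBR2 (0.14) did not pass. CSF2RB, the shared beta chain of IL-3, IL-5 and GM-CSF receptors, was lower by a difference of -2.76 and the common gamma chain IL2RG by -1.79.

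Genes of pattern recognition and the inflammasome were found in both directions. TLR7, which senses single-stranded RNA in endosomes, read 3.80 and 3.97 on the Mino arrays and 6.92 and 7.10 on the SP-49 arrays, a difference of 3.13, and TLR10, AIM2 and the adaptor MYD88 were higher by 1.98, 1.85 and 1.76. NOD2, a sensor of bacterial wall fragments, read 5.49 and 4.82 on the Mino arrays and 2.15 and 2.16 on the SP-49 arrays, a difference of -3.0, and the brake IRAK3 differed by -2.56. The list had 9 higher (39.1%) and 4 lower (17.4%) of 23, beside 13.9% and 11.8% of all genes, the lower count being 2 without replicate 2 of the Mino or the SP-49 mock arrays.

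Of 32 genes of oxidative stress and detoxification, 9 were higher in SP-49 (28.1%) and 11 lower (34.4%), beside 13.9% and 11.8% of all genes. The 6 metallothioneins of the list, which bind zinc and copper, were higher: MT1E read 3.46 and 3.31 on the Mino arrays and 6.38 and 6.12 on the SP-49 arrays, a difference of 2.87, and MT1H, MT1X, MT1F, MT2A and MT1G differed by 2.13, 1.88, 1.77, 1.70 and 1.34. These genes are close in sequence, so their probe sets may share signal. Among the lower genes, GCLM and GCLC, the subunits that limit glutathione synthesis, differed by -1.79 and -1.40, thioredoxin TXN by -1.46 and PRDX1 by -1.06. In the integrated stress response, 4 of 22 genes were higher (18.2%) and 9 lower (40.9%), among the latter asparagine synthetase ASNS (-1.85), CEBPB (-1.75), the tRNA exporter XPOT (-1.57) and TRIB3 (-1.07). The other probe set of ASNS gave -0.05 and did not pass the threshold. Among genes above the median of all values the shares were 20.3% and 17.0%. ATF4 itself did not pass (0.03, 95% interval -0.23 to 0.28). Of the chaperones, HSPB1 was lower by a difference of -2.10, and the ER chaperone HSPA5 and the cofactor DNAJA1 were higher by 1.33 and 1.01.

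Lipid synthesis genes were found in both directions. MSMO1, HMGCS1 and SQLE of the cholesterol pathway were higher by 1.52, 1.21 and 1.01, as was the sterol carrier STARD4 (1.90). Fatty acid synthase FASN read 6.21 and 5.87 on the Mino arrays and 4.12 and 4.12 on the SP-49 arrays, a difference of -1.92, and the elongase ELOVL6 differed by -2.63. The cholesterol exporter ABCG1 was lower by a difference of -2.17. Of 26 genes, 7 were higher and 7 lower, 26.9% in each direction beside 13.9% and 11.8% of all genes, and the lower count was 4 without Mino mock replicate 2 or SP-49 mock replicate 1.

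Cell cycle genes differed in both directions. RRM2, which makes deoxynucleotides, was higher by 1.10, the helicase subunit MCM2 by 1.06, UHRF1 by 0.86 and ORC1 by 0.90, while E2F2 was lower by a difference of -1.14. G1/S genes were higher in 12 of 33 (36.4%) and lower in 8 (24.2%), beside 13.9% and 11.8% of all genes, with a median of 0.10. The lower count was 4 or 5 without any one of the 4 arrays compared. In mitosis, ECT2, which places the cleavage furrow, was higher by 1.39 and the checkpoint kinase BUB1 lower by a difference of -1.27. Of 34 mitotic genes, 11 were higher (32.4%) and 2 lower (5.88%), with a median of 0.33. The higher count was 5, 4 and 7 without Mino mock replicate 1, SP-49 mock replicate 1 and SP-49 mock replicate 2. PCNA, CDK1, TOP2A and AURKA did not pass.

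Chromatin regulators were higher in 15 of 29 (51.7%) and lower in 4 (13.8%), beside 13.9% and 11.8% of all genes. The higher ones included the DNA demethylase TET2 (1.66), the acetyltransferases EP300 (1.60) and CREBBP (0.96), the Polycomb subunit EED (1.56) and the demethylase KDM6A (1.5). Of genes recurrently mutated in this lymphoma, SP140, a nuclear body protein, read 1.5 and 2.33 on the Mino arrays and 6.48 and 6.43 on the SP-49 arrays, a difference of 4.54. SMARCB1 and ARID1A, subunits of the SWI/SNF remodeller, were lower by differences of -1.08 and -1.06, and SETD2 was higher by 1.10. ATM, the DNA damage kinase, differed by -0.77 (adjusted p = 0.00631 by limma) and missed the threshold without Mino mock replicate 1 (-0.59, adjusted p = 0.0674). KMT2D, NSD2 and EZH2 did not pass.

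In the PI3K and mTOR list, 5 of 21 genes were higher (23.8%) and 4 lower (19%), with a median of -0.02. These shares were close to the 20.3% and 17.0% among genes above the median of all values (13.9% and 11.8% of all genes). Of the lower genes, EIF4EBP1, which blocks cap-dependent translation, read 6.34 and 6.62 on the Mino arrays and 4.16 and 4.11 on the SP-49 arrays, a difference of -2.35, and AKT1 and RHEB were lower by differences of -1.03 and -0.95. The WNT list had 8 higher (30.8%) and 4 lower (15.4%) of 26, with a median of -0.02, and the sign of both medians depended on the setting. There the receptors FZD1 and FZD7 were higher by 1.71 and 1.12 and the kinase GSK3B by 1.25, with CTNNB1 at 0.71, against -1.90 for LEF1. Of 22 homeobox genes, 5 were higher (22.7%) and 1 lower (4.55%), with PBX3 and HLX higher by 1.55 and 1.71 and HHEX, a regulator of B-cell development, the lower one, by a difference of -1.47. PRAME, 1 of 18 cancer-testis antigens measured, read 2.48 and 2.71 on the Mino arrays and 4.77 and 5.21 on the SP-49 arrays (2.39). GIMAP8 was higher by 3.34, and the other 6 GIMAP genes measured did not pass.

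**Figure D4:**
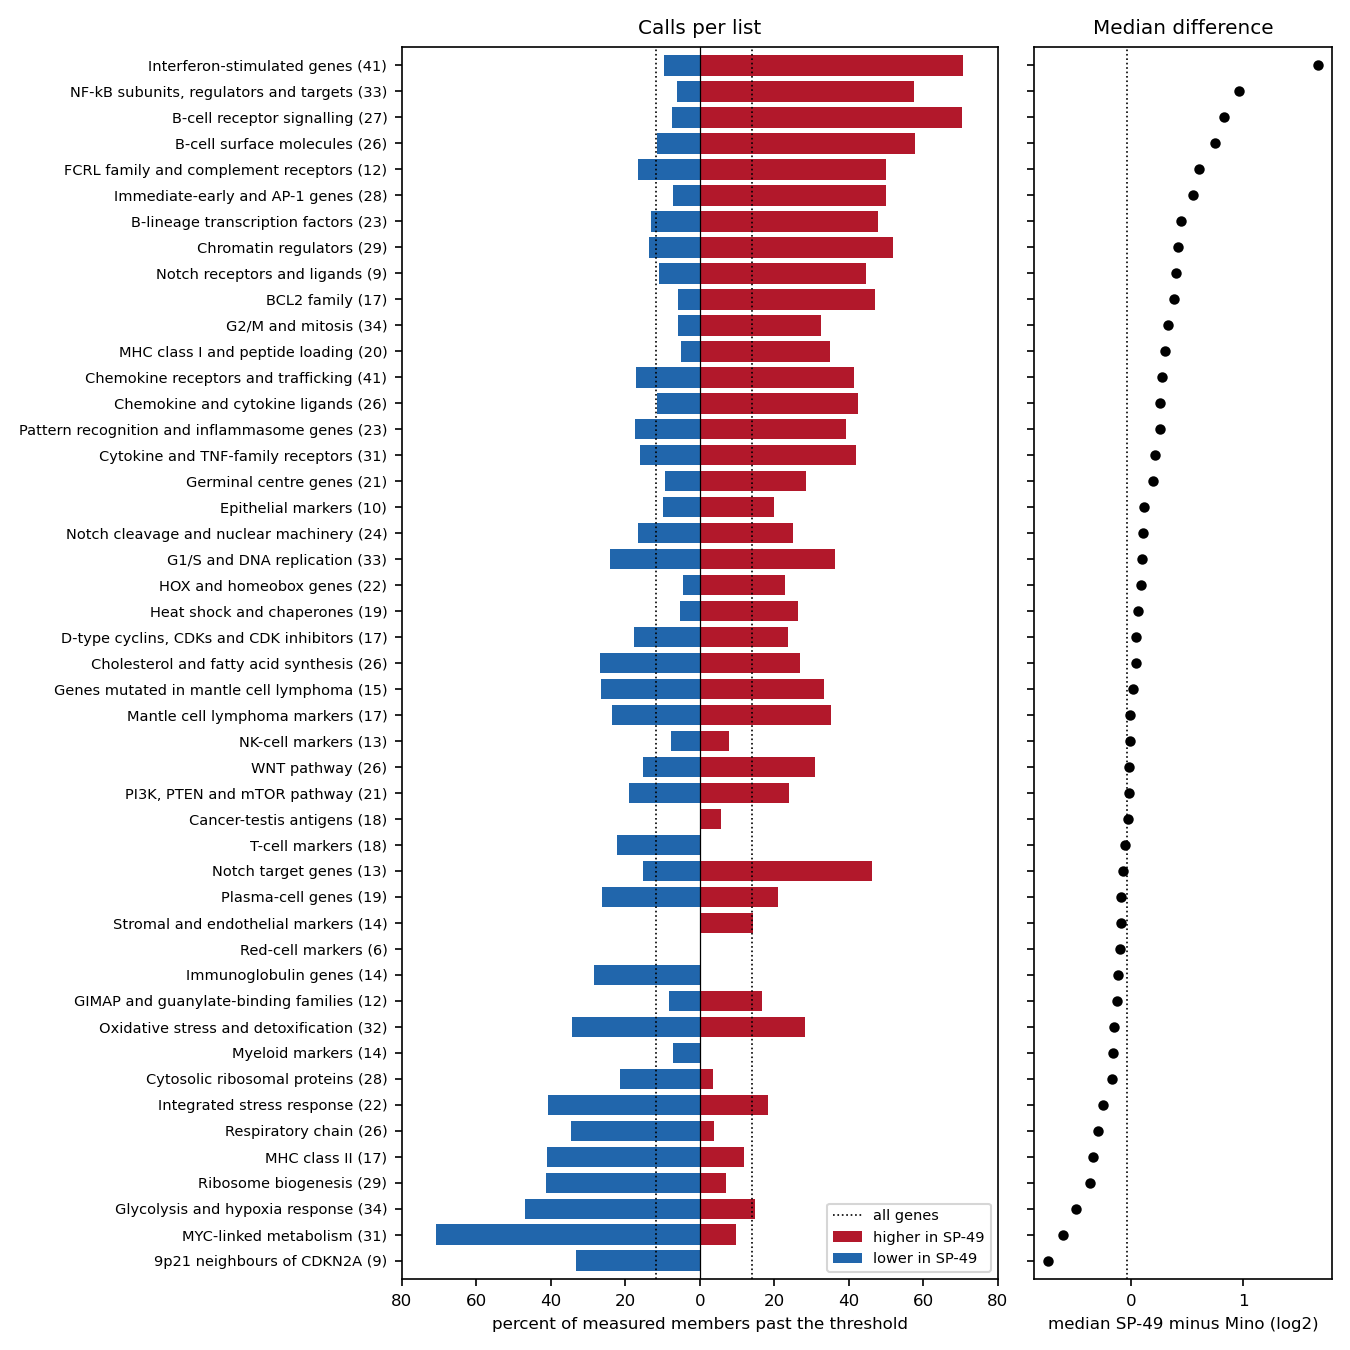
Left, percent of measured members of each of 47 gene lists (number measured in brackets) that were higher (red, to the right) or lower (blue, to the left) in SP-49 past the threshold, with dotted lines at 13.9% and 11.8%, the shares of all genes; right, the median difference of all measured members, with a dotted line at -0.03 for all genes. Interferon-stimulated genes, NF-kB genes and B-cell receptor signalling stand at the top, and MYC-linked metabolism and the 9p21 neighbours at the bottom.

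Markers of other cell types were examined, since bulk RNA cannot tell fewer cells of a type from less RNA per cell. Of 18 T-cell markers, 4 were lower in SP-49 (22.2%, against 11.8% of all genes and 17.0% of those above the median) and none higher, and the summed level of the list was 51.1 and 51.1 in Mino and 42.7 and 40.4 in SP-49. LCK, a Src-family kinase of T cells that some B-cell tumours express, read 6.06 and 6.30 on the Mino arrays and 2.56 and 1.84 on the SP-49 arrays, a difference of -3.98. ZAP70, a kinase of the T-cell receptor also known from B-cell leukaemia, differed by -2.41, CD7 by -1.89 and TRBC1 by -1.25. The defining T-cell genes CD3D, CD3E and CD3G had means from 1.60 to 2.36 over both lines, near the median of all values. In the NK list of 13, GZMB, a granule protease, was higher in SP-49 (1.63 and 1.89 on the Mino arrays and 4.57 and 5.26 on the SP-49 arrays), and PRF1, perforin, was lower (7.08 and 7.28 on the Mino arrays and 4.59 and 4.74 on the SP-49 arrays), by differences of 3.16 and -2.51. NKG7, GNLY and KLRD1 were under the median of all values in both lines. Among 14 myeloid markers AIF1 was lower by a difference of -2.52, while CD14, LYZ and MPO lay under the median. Of 14 stromal markers measured, 2 were higher (14.3%, against 13.9% of all genes), among them FN1 (1.99), and none was lower. Of 10 epithelial markers measured, 2 were higher (20%), among them CDH1 (2.21), and EPCAM was lower (-2.44). Red-cell markers, 6 measured, had none past the threshold. The summed level of the myeloid list was 26.6 to 26.9 in Mino and 22.5 to 22.8 in SP-49, and that of the NK list 29.0 to 29.9 and 29.3 to 29.8. Those of the stromal list were 29.98 to 30.96 and 32.25 to 32.75, of the epithelial list 24.34 to 24.39 and 25.02 to 25.50, and of the red-cell list 12.6 to 13.2 and 11.9 to 13.1. The part of other cell types in the results was not tested.

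The differences were not spread evenly over the chromosomes. Among 13410 genes with a position whose mean in at least 1 line exceeded the median of all values, 20.3% were higher in SP-49 and 17.0% lower. On chromosome 3, 38.9% of 720 genes were higher and 6.81% lower, with a median of 0.29. On chromosome 7 the pattern turned: 9.87% of 618 genes were higher and 36.6% lower, with a median of -0.29. On chromosome 9, 29.5% of 536 genes were higher and 9.89% lower, and on chromosomes 20 and 21 24.3% and 30.5% were lower against 8.98% and 13.2% higher.

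Neighbouring genes moved together over long stretches. Windows of 30 neighbouring genes had medians whose 5th and 95th percentiles were -0.40 and 0.41 over 12743 overlapping windows. The lowest median, -1.36, was that of the window from POLR2J2 to PNPLA8 on chromosome 7, in which 24 genes were lower and none was higher. A further window of that chromosome, from ZNF277 to IMPDH1, had -1.23, with 20 lower and 2 higher, and the caveolin gene CAV1 (-5.50) lies within it. On chromosome 6 the window from ME1 to COQ3 had -1.0, and on chromosome 2 that from CIAO1 to EIF5B -0.87. The highest median, 1.25, was that of RPL24 to QTRT2 on chromosome 3, with 22 higher genes and none lower, and the windows from PBRM1 to KCTD6 and from POGLUT1 to PARP14 on that chromosome had 0.95 and 0.93. A block of zinc finger genes at the end of chromosome 19, from ZNF264 to ZNF544, had 1.08, with 22 higher and none lower. Genes named with their groups lie in such stretches too: NFKBIZ is on chromosome 3 in the window from RPL24 to QTRT2, and PARP9 (3.58), an interferon-stimulated gene, in that from POGLUT1 to PARP14. DNA copy number was not analysed here.

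**Figure D5:**
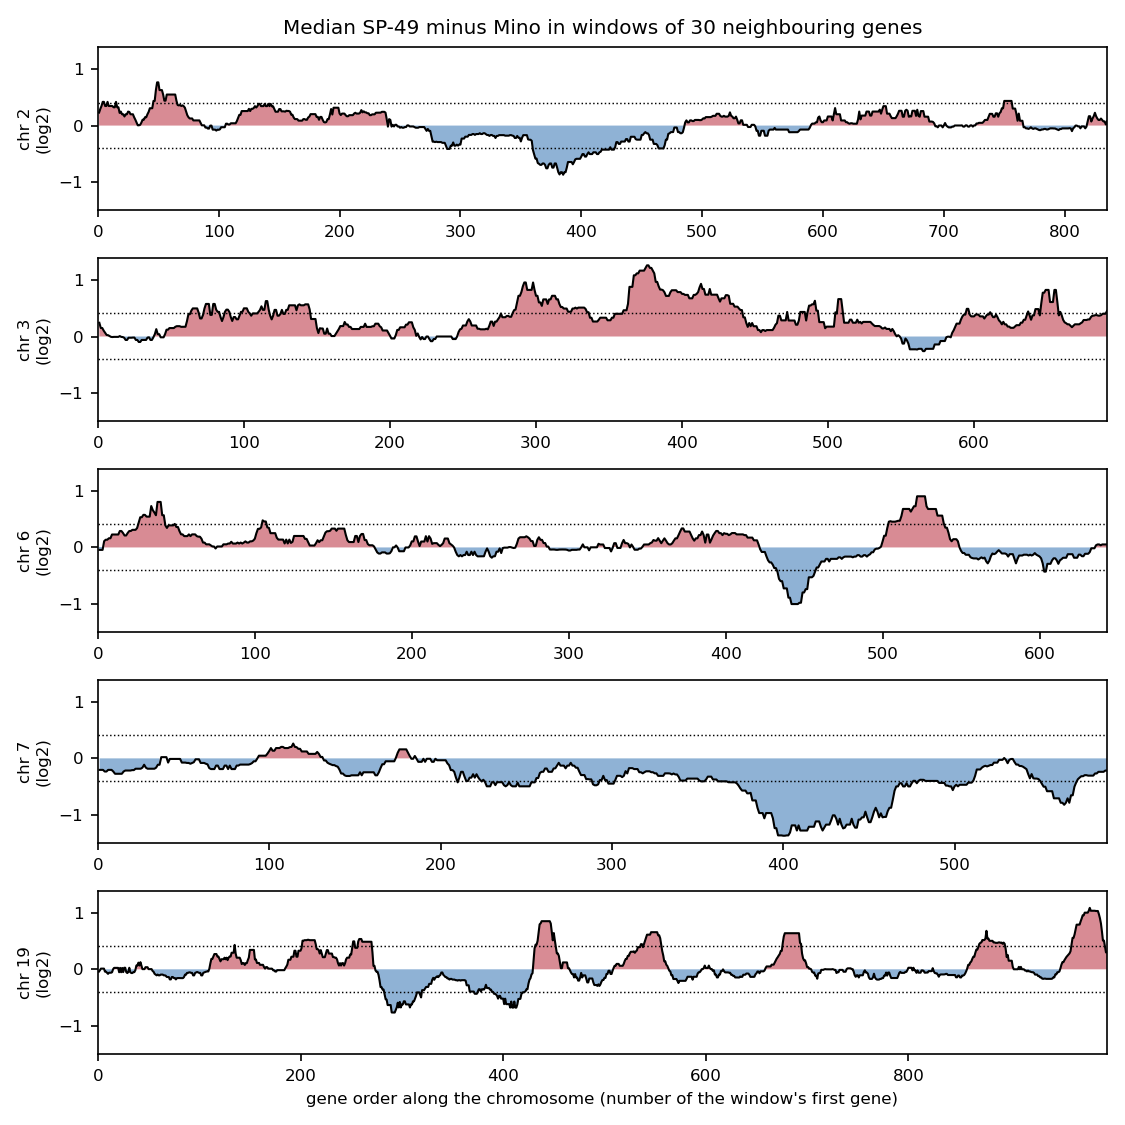
Median SP-49 minus Mino difference (log2, y axis) in windows of 30 neighbouring genes, in gene order along chromosomes 2, 3, 6, 7 and 19 (x axis, number of the first gene); dotted lines are the 5th and 95th percentiles of all windows, -0.40 and 0.41. Chromosome 7 holds the lowest medians and chromosome 3 the highest, each over a run of many overlapping windows.

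For some genes the result turned on the probe set. Of 10523 genes with several probe sets, 92 had probe sets past the threshold in both directions, and 5 had them at 1 log2 unit or more in both: CCND1, IGHM, FKBP1A, CHURC1 and RPUSD3. FKBP1A, the protein that binds the drug FK506, read 9.30 and 9.41 on the Mino arrays and 6.87 and 6.64 on the SP-49 arrays on its brightest probe set, a difference of -2.60, and 2.54 and 2.49 against 4.06 and 4.05 on another, a difference of 1.54. CHURC1, a zinc finger factor, differed by 1.5 on its brightest probe set, with 6.55 and 6.35 in Mino and 7.93 and 7.97 in SP-49, and by -1.72 on another, with 6.21 and 6.49 against 4.48 and 4.77. Both of these probe sets were well above background in both lines, so here neither can be set aside as dim. For FKBP1A, 2 of the 3 other probe sets were lower past the threshold, like the brightest, and the opposite one was dim in Mino. For these 5 genes no single direction describes all probe sets.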

How the data were processed

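Values are those the authors deposited for 54675 Affymetrix probe sets, on a log2 scale (base inferred from their range) and normalized between arrays; the submitters' processing notes name RMA and limma, without versions. Genes were named from the platform annotation, with symbols updated by gene number (41043 of 41097 probe sets naming 1 gene), and each gene was represented by its probe set with the highest mean over the 12 arrays. limma 3.58.1 in R 4.3.3 (lmFit, eBayes) fitted the 6 group means over 12 arrays (degrees of freedom: 6 residual, 5.22 prior). Two-sided p-values were adjusted over 19775 genes (Benjamini-Hochberg; threshold 0.05); 95% intervals hold for single genes. On simulated arrays the fit recovered 58.2% of 67 genes changed by 1 log2 unit and 98.5% of 66 changed by 2. Of 67 changed by 0.5 it recovered 13.4%, with 10 false calls over 19775 genes. In the data 5069 genes passed, and the recovery and false calls with that many changed genes was not tested.

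The 48 gene lists, with 1001 measured genes, and the lines compared were chosen with earlier results of these data known. Genes were named by a rule: the 15 largest differences each way past the threshold with no overlap between lines, without XIST, genes of the Y chromosome and names that are only a locus number, up to 6 called members of a list each way, and a fixed set of Notch, cyclin, B-cell and apoptosis genes. The other genes named were chosen after their values were seen. Gene order and promoters (27305) are those of RefSeq, GRCh38.p14; chromosome shares use genes placed on chromosomes 1 to 22 or X whose higher line mean exceeded the median of all values. Same-numbered replicates share only a number (their deviations correlated across genes with r = 0.02). Alternatives were each probe set alone, the mean of probe sets, dim genes left out, requantiling, median centring, a trended robust prior, 4 or 6 arrays, a 1.5-fold minimum, the replicate number as a block, and leaving out each array in turn; the medians of chromosomes under these were added after the data were seen. When 1 array remained in a group, its spread was taken from the other groups. Depth does not apply to arrays, of which 2 per line limit the precision. Some genes and 1 of the lists are not reported here.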

Additional observations from a re-analysis of the deposited data

How the results depend on the processing

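The numbers of higher and lower genes, 2742 and 2327, stayed within 1.5 times under every alternative except a minimum of 1.5-fold, which left 992 and 722 (1714 in all, and 256 members of the gene lists), since it asks for more than a difference. Without 1 array the totals ran from 3738 to 5553 genes, higher genes from 2035 to 2980, lower genes from 1675 to 2573 and list members from 409 to 518. With the replicate number as a replicate block 5138 genes passed, and none of the 280 called genes named in the text lost its call. None of these reversed in the fits on their brightest probe set, and 3 (ATM, HES4 and JAG2) lost their call in a fit without 1 array. A 1.5-fold minimum took the call of 45 of them, the mean of probe sets that of 8 and the next brightest probe set that of 38 of the 188 that have one, beside the reversals below.

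Reversals came from the choice of probe set. With the next brightest probe set the differences were -8.02 for CCND1, -0.65 for NOTCH1 and 1.21 for RPUSD3, past the threshold, and not past it -0.52 for CHURC1, -0.45 for ANKRD37, -0.086 for BCL2L13, -0.15 for BLK, 0.20 for CD9, -0.084 for CR2, 0.029 for DDX10, -0.19 for ELL2, -0.16 for FZD1, -0.011 for MT1G, -0.33 for MYBL1, -0.14 for NFKBIA, -0.12 for PAX5, -0.053 for RASGRP3, 0.053 for SDHD and 0.18 for TAPBP. HLA-DPA1, not past the threshold on its brightest probe set, gave -0.89. Averaging the probe sets of a gene, the differences were -3.04 for CCND1, -0.25 for CHURC1, -0.71 for IGLC1 and 0.025 for RPUSD3. The cause was not tested. The median over chromosome 3 ran from 0.19 to 0.32 and over chromosome 7 it was -0.23 with the mean of probe sets.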
